A study of Homo sapiens with 6 samples.

Results

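Chemokines are small secreted proteins that guide migrating cells along a gradient, and they fall into CXC and CC families by the spacing of their first cysteines. They act through G protein coupled receptors, while atypical receptors bind the same ligands without G protein signalling and carry them into the cell for degradation. Several inflammatory chemokine genes are induced by NF-kB and AP-1 transcription factors. The 6 genes described here are CXCL8, CCL2, CCL20, CXCL10, CXCL14 and ACKR3, out of 14884 named genes measured. They were chosen from the expression difference between the groups compared below, so their differences are a description and carry no test. Each was read by 1 probe set. CXCL8 recruits neutrophils through CXCR1 and CXCR2, CCL2 recruits monocytes through CCR2, and CCL20 attracts cells that carry CCR6. CXCL10 is induced by interferon and acts through CXCR3. CXCL14 is a constitutively expressed chemokine of epithelia. ACKR3 (once CXCR7) is an atypical receptor that scavenges CXCL12 and also binds CXCL11.

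The arrays came from U-2 OS cells, a human osteosarcoma line, 4 days after infection with a retroviral vector. RNA was taken after 3 days of selection in puromycin at 5 µg/ml. On 3 arrays the vector encoded S22A-progerin, in which serine 22 is replaced by alanine. On the other 3 it encoded wt-progerin, which is progerin without that substitution. Progerin is the truncated, permanently farnesylated lamin A of Hutchinson-Gilford progeria, so both groups carry it. The samples are described as independent replicates, all of 1 cell line. Arrays of cells without progerin were not analysed here, so a difference does not tell which group departs from the uninfected line. In cultures of this kind fewer expressing cells and less RNA per cell cannot be told apart.

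Over 53617 probe sets the array medians lay between 6.04 and 6.09 on the log2 scale. Arrays correlated at 0.994 to 0.997 within a group and at 0.983 to 0.985 between groups, across genes, which are not independent replicates. LMNA, the gene of lamin A and of its truncated form progerin, averaged 8.29 ± 0.024 in S22A-progerin and 8.14 ± 0.036 in wt-progerin (SD, n = 3 arrays each), a difference of 0.15 that did not pass (adjusted p = 0.0796, limma). How far its probe set reads the retroviral transcript was not tested. Of the markers of the line's mesenchymal origin, VIM averaged 10.83 in S22A-progerin and 10.89 in wt-progerin, and TWIST1 averaged 4.98 in S22A-progerin and 4.93 in wt-progerin. RUNX2, a bone transcription factor, averaged 8.03 in S22A-progerin and 8.77 in wt-progerin and was lower (-0.74, adjusted p = 9.60e-04, limma). Of 11 leukocyte, erythroid and endothelial markers 5 were measured. At an adjusted p under 0.05, 0 were called higher or lower (limma), against 25.4% over all genes. The count was also 0 at an unadjusted p under 0.05 (limma), with no share over all genes computed at that threshold. All 5 differences were positive, from 0.0080 to 0.26 with a median of 0.17, and their part in the results below was not tested. The defining leukocyte marker PTPRC was not analysed here.

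Upstream sequence was given by RefSeq (build GRCh38.p14) for 4 of the 6 genes, CXCL8, CCL20, CXCL10 and CXCL14. The 250 bases before each gene start are shown because the chemokine genes that were higher in S22A-progerin are ones for which NF-kB and AP-1 sites are textbook elements. Each sequence runs 5′ to 3′ on the gene's own strand, and capitals mark matches to the motifs named after them. CXCL8 lies on the plus strand (chr4:73740319-73740568) and CCL20 on the plus strand (chr2:227813592-227813841). CXCL10 lies on the minus strand (chr4:76023498-76023747), as does CXCL14 (chr5:135578992-135579241).
CXCL8: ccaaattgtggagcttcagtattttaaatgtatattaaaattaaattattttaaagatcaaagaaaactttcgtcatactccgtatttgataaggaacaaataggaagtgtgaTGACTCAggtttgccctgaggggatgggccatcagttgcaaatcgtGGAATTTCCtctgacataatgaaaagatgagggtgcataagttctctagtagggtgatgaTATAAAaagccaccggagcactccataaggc
CCL20: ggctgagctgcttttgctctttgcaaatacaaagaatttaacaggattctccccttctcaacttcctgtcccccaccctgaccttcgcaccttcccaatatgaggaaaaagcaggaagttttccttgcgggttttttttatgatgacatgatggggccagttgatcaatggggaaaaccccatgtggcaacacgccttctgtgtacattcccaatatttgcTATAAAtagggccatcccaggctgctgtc
CXCL10: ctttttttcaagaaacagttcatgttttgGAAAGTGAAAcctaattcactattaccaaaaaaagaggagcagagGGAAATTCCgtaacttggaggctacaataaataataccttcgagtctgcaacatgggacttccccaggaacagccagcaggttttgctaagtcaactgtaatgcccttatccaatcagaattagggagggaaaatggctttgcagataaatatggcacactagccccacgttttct
CXCL14: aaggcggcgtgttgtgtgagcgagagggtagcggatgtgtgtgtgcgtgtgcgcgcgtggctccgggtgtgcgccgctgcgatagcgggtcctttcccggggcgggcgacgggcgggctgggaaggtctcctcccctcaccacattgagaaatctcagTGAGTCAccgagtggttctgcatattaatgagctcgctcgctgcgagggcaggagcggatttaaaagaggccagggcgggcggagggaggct

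The motifs were an NF-kB-like GGANNTTCC, the AP-1 element TGANTCA, an ISRE-like motif, after the element of interferon-induced genes (GAAA, any 2 bases, GAAA), and the TATA box TATAAA, searched on both strands, with a match on both counted once. CXCL8 held an AP-1 match at -137 to -131, an NF-kB-like match at -91 to -83 and a TATA box at -31 to -26, counted from the gene start. CXCL10 held an ISRE-like match at -221 to -212 and an NF-kB-like match at -176 to -168. CCL20 held a TATA box at -29 to -24 and no match to the other motifs. CXCL14, the chemokine gene that was lower, held an AP-1 match at -92 to -86. No match says only that these letters are not in this window. Binding sites of the same factors written with other letters were not searched, so a window without a match may still hold one.

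Over 27305 genes with such a window, the NF-kB-like motif was found in 3.88%, the AP-1 motif in 6.60%, the ISRE-like motif in 3.07% and the TATA box in 11.1%. Among the other measured chemokine ligand genes 25 had a window, and 6 of them (24.0%) held the NF-kB-like motif. These 6 were CXCL2, CXCL3, CXCL5, CXCL6, CXCL11 and CCL1, and CXCL3 was the 1 whose expression passed the test below. A TATA box stood in 11 of the 25 windows (44.0%), an AP-1 match in 4 (16.0%) and an ISRE-like match in 1 (4.00%). Among the 10749 tested genes with a window, from which the called genes come, the shares were 3.78% for the NF-kB-like motif, 5.14% for AP-1, 2.57% for the ISRE-like motif and 8.14% for the TATA box. For all genes higher in S22A-progerin with a window (1198), the shares were 4.51% for the NF-kB-like motif, 6.93% for AP-1, 2.67% for the ISRE-like motif and 10.4% for the TATA box, each above its share among the tested genes. For the 1772 lower genes they were 3.56% for the NF-kB-like motif, 3.05% for AP-1, 2.20% for the ISRE-like motif and 4.63% for the TATA box, each below it. The shares are a description, and no test was made of them.

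**Figure D1:**
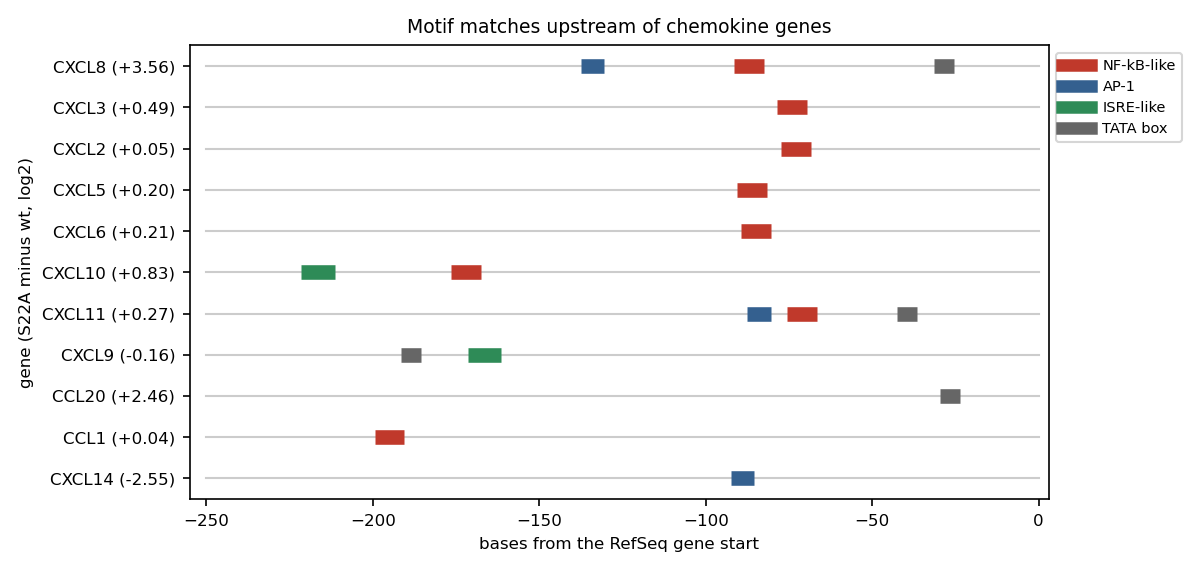
Motif matches in the 250 bases before the gene start for the 4 genes shown above that have a window (CXCL8, CXCL10, CCL20, CXCL14) and for the 7 other ligand genes with an NF-kB-like or ISRE-like match. The x axis gives bases from the RefSeq gene start, and the number beside each gene is its difference, S22A-progerin minus wt-progerin, in log2. CXCL8 at 3.56 and CXCL2 at 0.05 both carry an NF-kB-like match, at -91 and at -77.

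The neutrophil chemokine CXCL8 was the member with the largest difference. It read 9.07, 8.90 and 8.70 on the log2 scale in S22A-progerin replicates 1, 2 and 3, against 5.22, 5.42 and 5.37 in wt-progerin. All 3 S22A-progerin arrays lay above all 3 wt-progerin arrays, and the gap between the groups (3.29) was 8.87 times the widest range within a group. The means were 8.89 ± 0.19 in S22A-progerin and 5.34 ± 0.10 in wt-progerin (SD, n = 3), a difference of 3.56 or 11.8-fold. CXCL8 ranked 5 among all tested genes by the size of its rise.

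CCL2, the monocyte chemokine, read 11.44, 11.46 and 11.23 in S22A-progerin, against 8.65, 8.51 and 8.43 in wt-progerin. The groups did not overlap, and CCL2 was already well above the array median in wt-progerin. Its means were 11.38 ± 0.12 in S22A-progerin and 8.53 ± 0.11 in wt-progerin (SD, n = 3), a difference of 2.85 or 7.21-fold. CCL20, the CCR6 ligand, read 8.18, 8.07 and 8.03 in S22A-progerin, against 5.74, 5.59 and 5.57 in wt-progerin. Its groups did not overlap either, with means of 8.09 ± 0.076 in S22A-progerin and 5.63 ± 0.090 in wt-progerin (SD, n = 3), a difference of 2.46 or 5.50-fold. In wt-progerin the CXCL8 and CCL20 probe sets read below the array median. No detection call was used, so whether such low values stand above background was not tested.

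CXCL10, the interferon-induced chemokine, showed the smallest difference of the 6. It read 5.26, 5.27 and 5.08 in S22A-progerin, against 4.41, 4.28 and 4.42 in wt-progerin. The groups did not overlap, but every one of these values lay below the array median. The means were 5.20 ± 0.11 in S22A-progerin and 4.37 ± 0.081 in wt-progerin (SD, n = 3), a difference of 0.83 or 1.78-fold. By size of rise CXCL10 ranked 226, and CXCL8, CCL2 and CCL20 ranked 5, 8 and 11.

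CXCL14 was lower in S22A-progerin. It read 8.51, 8.34 and 8.45 in S22A-progerin, against 10.97, 10.96 and 11.02 in wt-progerin. The wt-progerin arrays were high and close together, and the S22A-progerin arrays all lay at least 2.45 below them. The means were 8.43 ± 0.087 in S22A-progerin and 10.98 ± 0.030 in wt-progerin (SD, n = 3), a difference of -2.55, or 5.85-fold lower. By size of fall it ranked 1 of the 14884 genes. Even so, its S22A-progerin values stayed above the array median.

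ACKR3, the scavenging receptor, was also lower. It read 6.07, 6.04 and 6.01 in S22A-progerin, against 7.64, 7.63 and 7.66 in wt-progerin. Its 3 arrays within a group differed by at most 0.060, the tightest spread of the 6 genes, and the gap between the groups (1.56) was 25.9 times that. The means were 6.04 ± 0.030 in S22A-progerin and 7.64 ± 0.017 in wt-progerin (SD, n = 3), a difference of -1.60, or 3.04-fold lower. In S22A-progerin the ACKR3 probe set read at about the array median.

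The groups of arrays did not overlap in any of the 6 genes. Over all genes the groups did not overlap in 42.1%, and since the members were chosen on this contrast nothing is read from their count. In S22A-progerin replicate 3 was the lowest array of its group for CXCL8, CCL2, CCL20, CXCL10 and ACKR3, though not for CXCL14. With any 1 array left out the differences ranged from 3.46 to 3.65 for CXCL8, 2.80 to 2.92 for CCL2, 2.42 to 2.51 for CCL20 and 0.79 to 0.89 for CXCL10. They ranged from -2.59 to -2.50 for CXCL14 and from -1.62 to -1.59 for ACKR3.

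**Figure D2:**
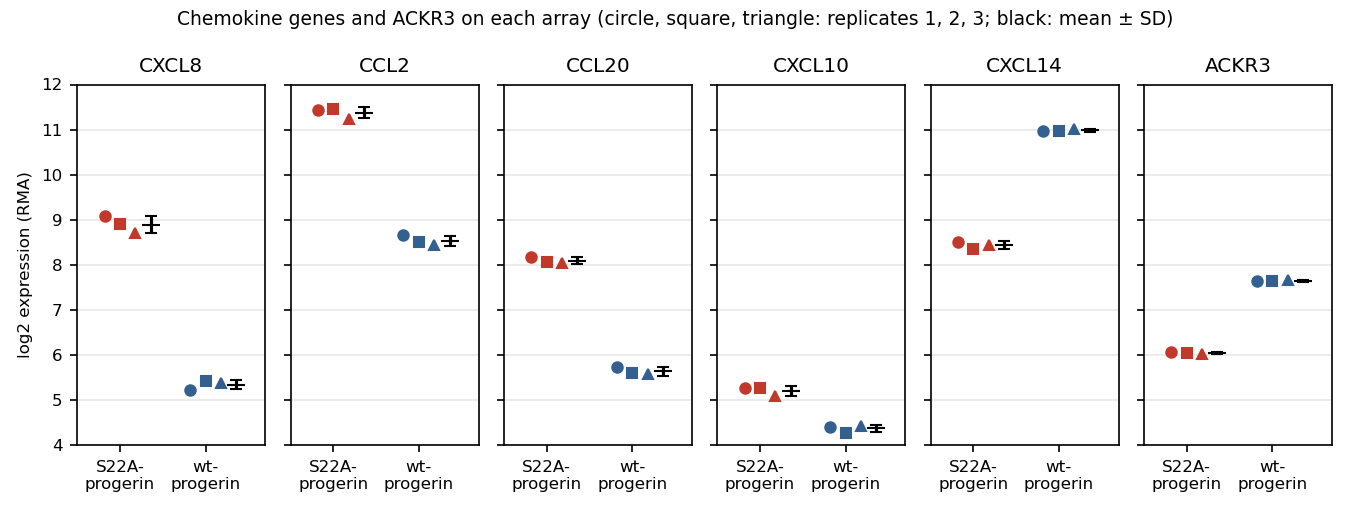
Log2 expression of the 6 genes on each of the 6 arrays, S22A-progerin left and wt-progerin right in each panel, with the mean ± SD (n = 3) in black. In CXCL8, CCL2, CCL20 and CXCL10 the S22A-progerin arrays sit above the wt-progerin arrays, and in CXCL14 and ACKR3 below them; levels of different genes are read by different probe sets and are not comparable.

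Genes with the most similar profile were found by the root-mean-square difference over the 6 arrays after each gene was centred on its own mean, a measure that follows the size of the group difference closely. For CXCL8 the nearest were GDF15, a secreted factor of stressed cells (0.11 log2 units apart, difference 3.55), and ESM1, the secreted proteoglycan endocan (0.17, difference 3.85). For CCL2 they were the long noncoding RNA UCA1 (0.086, difference 2.74) and TMEM156 (0.17, difference 2.65). For CCL20 they were IL24, an interleukin (0.083, difference 2.41), and SP110, a nuclear body protein induced by interferon (0.10, difference 2.28). CXCL10 lay nearest to ODAPH, an enamel protein gene (0.053, difference 0.75), and STOM, the membrane protein stomatin (0.056, difference 0.86). ACKR3 lay nearest to A2M, the protease inhibitor alpha-2-macroglobulin (0.024, difference -1.58), and PIEZO2, a stretch-gated ion channel (0.031, difference -1.60). CXCL14, which had the largest fall of all genes, had no gene so close, and with this measure that follows largely from the size of its fall. The nearest were SHOC1, a meiotic crossing-over gene (0.25, difference -2.06), and the long noncoding RNA LUARIS (0.29, difference -1.99). Among the members, CCL2 and CCL20 were the closest pair, at 0.20.

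Most other measured chemokine ligand genes did not pass. Of 41 other ligand genes 35 were measured, and 2 were higher, 3 lower and 30 did not pass (limma, adjusted p under 0.05 over all genes). Over all 14884 genes 10.8% were higher and 14.6% lower in S22A-progerin, so the ligand shares (5.71% and 8.57%) were below these. The median difference of the 35 genes was 0.04, against -0.004 over all genes. Many of the 35 read below the array median in both groups, such as CXCL6 (3.32 in S22A-progerin, 3.11 in wt-progerin) and CCL8 (3.46 and 3.72). No detection call was used, so for these a missing call was not told apart from missing expression. CCL26, or eotaxin-3, an eosinophil attractant that binds CCR3, read 8.84, 8.75 and 8.52 in S22A-progerin, against 7.57, 7.80 and 7.66 in wt-progerin. All its S22A-progerin arrays lay above its wt-progerin arrays, and it was 2.04-fold higher (difference 1.03, SE 0.099, adjusted p = 4.58e-04, limma). CCL24, or eotaxin-2, which uses the same receptor, had a difference of -0.06 (adjusted p = 0.577, limma).

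CXCL3, a neutrophil chemokine of the CXCL8 kind, read 5.31, 5.25 and 5.36 in S22A-progerin, against 4.76, 4.75 and 4.95 in wt-progerin, and was 1.41-fold higher (difference 0.49, SE 0.073, adjusted p = 0.00299, limma). Its near copy CXCL2 read 7.10, 7.32 and 6.90 in S22A-progerin, against 7.03, 7.08 and 7.04 in wt-progerin, and the groups overlapped (difference 0.05, SE 0.10, adjusted p = 0.752, limma). CXCL2 and CXCL3 are paralogs, and how far their probe sets share signal was not tested. Positions -100 to -1 before each gene start are shown because they share an identical run of 37 bases, the longest the windows share, which holds the NF-kB-like match in capitals. Both genes lie on the minus strand of GRCh38.p14, CXCL3 at chr4:74038690-74038789 and CXCL2 at chr4:74099196-74099295, and the sequences are RefSeq's.
CXCL3: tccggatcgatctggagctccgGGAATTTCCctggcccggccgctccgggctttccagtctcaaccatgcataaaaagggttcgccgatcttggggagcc
CXCL2: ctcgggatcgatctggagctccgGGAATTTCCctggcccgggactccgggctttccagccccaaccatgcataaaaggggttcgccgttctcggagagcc

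The lower ligands had small differences. They were CCL23 (-0.27, SE 0.070, adjusted p = 0.0303), a CCR1 ligand, CXCL16 (-0.23, SE 0.065, adjusted p = 0.0408) and CX3CL1 (-0.23, SE 0.068, adjusted p = 0.0468), all by limma. CXCL16 and CX3CL1, or fractalkine, are the membrane-anchored chemokines. CXCL16 and CX3CL1 did not pass with wt-progerin replicate 1, 2 or 3 or S22A-progerin replicate 2 or 3 left out. CCL23 did not pass without wt-progerin replicate 1 or 3 or S22A-progerin replicate 2 or 3. The count of lower ligands then went as low as 0, and CXCL16 had an adjusted p of 0.131 without wt-progerin replicate 2, CX3CL1 of 0.144 without wt-progerin replicate 1 and CCL23 of 0.104 without wt-progerin replicate 3 (limma). Ligands that did not pass included PF4 (0.18), a platelet chemokine, and the lymph node chemokines CCL19 (-0.08) and CCL21 (-0.05). These were among the uncalled ligands of highest mean. The group means of CCL19 and CCL21 lay only somewhat above the array median, at 6.62 to 6.69. CXCL12, the main ligand of ACKR3, read 6.35, 6.72 and 6.23 in S22A-progerin, against 6.69, 6.48 and 6.58 in wt-progerin, and its groups overlapped (difference -0.15, SE 0.13, adjusted p = 0.465, limma). CXCL11, the other chemokine that ACKR3 binds, read 4.94, 5.18 and 4.92 in S22A-progerin, against 4.65, 4.88 and 4.71 in wt-progerin. Its groups did not overlap, but it did not pass (difference 0.27, SE 0.094, adjusted p = 0.0822, limma). CXCL12, CXCL11 and CCL24 were named for their relation to genes above after their values were seen.

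The signalling receptors of CXCL8, CCL2, CCL20 and CXCL10 did not pass. CXCR1 (-0.22, adjusted p = 0.264) and CXCR2 (0.33, adjusted p = 0.13), which bind CXCL8, had no call, nor had CCR2 (-0.24, adjusted p = 0.175), which binds CCL2 (limma). CCR6 (0.13, adjusted p = 0.438), the receptor of CCL20, and CXCR3 (0.38, adjusted p = 0.126), the receptor of CXCL10, had none either (limma). CXCR4, the signalling receptor that shares CXCL12 with ACKR3, read 5.79, 5.88 and 6.01 in S22A-progerin, against 5.63, 5.77 and 5.59 in wt-progerin. Its groups did not overlap, and its difference of 0.23 (SE 0.079) did not pass (adjusted p = 0.0764, limma). The groups of CXCR3 and CCR2 did not overlap either. CXCR1, CXCR2, CCR2 and CXCR4 read below the array median in both groups, and CCR6 read near it. CXCR3 averaged 6.07 in S22A-progerin, near the median, but read a lower and uneven 5.31, 5.82 and 5.94 in wt-progerin. Apart from CCR6 these receptors were named for the ligands they bind.

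Of 22 other receptor genes 19 were measured, and 2 were higher and 0 lower (limma, 8 and 0 at an unadjusted p under 0.05), with a median difference of 0.15 against -0.004 over all genes. The share of higher receptors (10.5%) was close to the 10.8% over all genes, both at an adjusted p under 0.05. The share over all genes at an unadjusted p under 0.05 was not computed, so nothing is read from the 8. CCR4, the receptor of CCL17 and CCL22, read 5.54, 5.55 and 5.25 in S22A-progerin, against 4.92, 4.96 and 4.99 in wt-progerin (difference 0.49, SE 0.089, adjusted p = 0.00714, limma). ACKR2, an atypical receptor that scavenges inflammatory CC chemokines, read 5.01, 5.05 and 5.06 in S22A-progerin, against 4.79, 4.78 and 4.90 in wt-progerin (difference 0.22, SE 0.057, adjusted p = 0.0284, limma). The groups of both genes did not overlap, and both read below the array median. ACKR2 did not pass without wt-progerin replicate 1 or 2 or any 1 S22A-progerin array (adjusted p = 0.0556 to 0.0992, limma), which left 1 higher receptor in 4 of these 5 fits. ACKR4, the scavenger of CCL19, CCL20 and CCL21, had a difference of 0.09 (adjusted p = 0.583, limma), and ACKR1 was not analysed here. XCR1 (0.15), CCR7 (0.16) and CCR10 (0.16) had some of the highest means of the receptors that did not pass. Their group means, 6.07 to 6.63, lay near the array median.

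**Figure D3:**
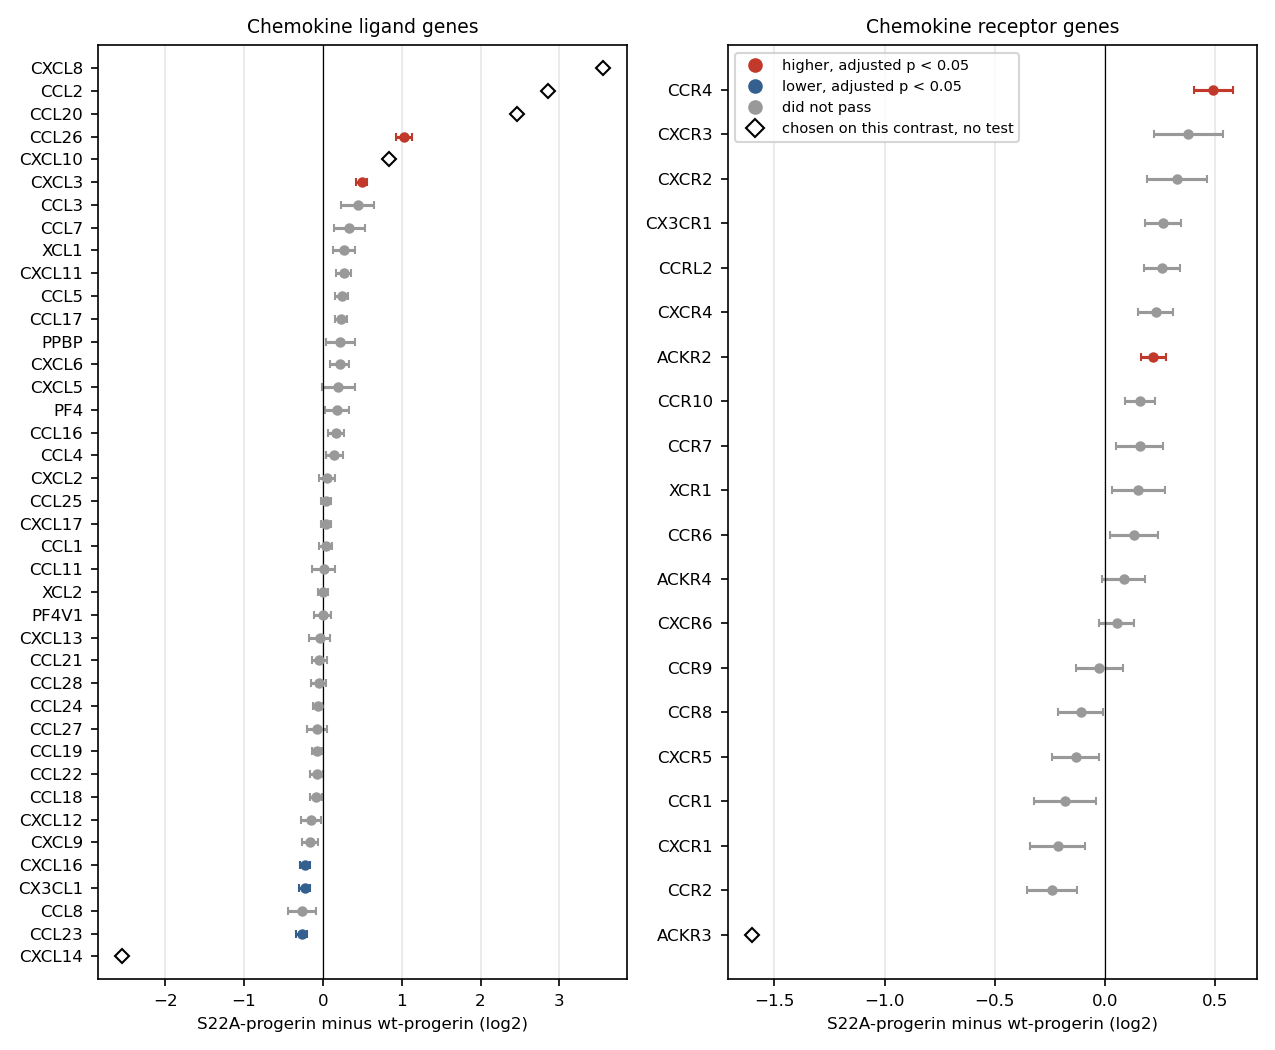
Differences of chemokine ligand genes (left) and receptor genes (right), as log2 S22A-progerin minus wt-progerin, with limma's SE as bars. Open diamonds are the 6 genes chosen on this contrast, shown without a test. Among the ligands CCL26 (1.03) and CXCL3 (0.49) are higher and CXCL14 (-2.55) lies far to the left of the rest, and among the receptors ACKR3 (-1.60) does.

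The called partners of ACKR3 went both ways. Of 14 listed genes for its kinases, arrestins and non-chemokine ligands with their receptors 10 were measured, and 4 were higher and 1 lower (limma), against 10.8% and 14.6% over all genes, with a median of 0.14 against -0.004. GRK5, a kinase that phosphorylates activated receptors of this class, read 8.85, 8.60 and 8.51 in S22A-progerin, against 7.78, 7.86 and 7.91 in wt-progerin, 1.74-fold higher (difference 0.80, SE 0.093, adjusted p = 9.97e-04, limma). GRK6, another kinase of the family, was lower (-0.50, SE 0.092, adjusted p = 0.00745, limma), and its groups did not overlap. MIF, a cytokine that binds ACKR3, differed by 0.23 (adjusted p = 0.0157), and ADM, the peptide adrenomedullin that ACKR3 takes up, by 0.25 (adjusted p = 0.0434, limma). RAMP2, the coreceptor of adrenomedullin signalling, differed by 0.33 (adjusted p = 0.0306, limma). Without wt-progerin replicate 1 or 3 MIF, ADM and RAMP2 did not pass, and 1 higher gene was left, and without S22A-progerin replicate 1 or 2 neither ADM nor RAMP2 passed, and 2 were left. CALCRL (0.16), RAMP1 (0.05), RAMP3 (0.13) and PENK (0.08) did not pass, and the arrestin genes ARRB1 and ARRB2 were not analysed here.

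The genes next to the 6 in the genome differed by -0.69 to 0.45. In RefSeq order, the 5 nearest measured genes on each side of each member gave 60 neighbours. Of these 0 were higher and 6 lower (limma, adjusted p under 0.05), against 10.8% and 14.6% over all genes. At an unadjusted p under 0.05, 4 were higher (limma), with no share over all genes computed at that threshold. CXCL8 stands in a cluster of CXC genes, where CXCL6 (0.21), PF4V1 (-0.0018), PF4 (0.18), PPBP (0.22) and CXCL5 (0.20) follow it, and none of these passed (limma, adjusted p = 0.243 to 0.994). CXCL6 and PPBP read well below the array median in both groups. Outside the 5 nearest, farther along the chromosome, lie CXCL3, which was higher (0.49, adjusted p = 0.00299), and CXCL2 (0.05), which did not pass (limma). CCL2 is followed by CCL7 (0.34), CCL11 (0.01), CCL8 (-0.26) and CCL1 (0.04), other attractants of monocytes and eosinophils among them, and none passed (limma, adjusted p = 0.271 to 0.970). CCL7 was uneven in wt-progerin, at 4.61, 4.30 and 4.16 in S22A-progerin against 3.63, 4.04 and 4.39 in wt-progerin, and its groups overlapped. CXCL10 lies between the related genes CXCL9 (-0.16, adjusted p = 0.311) and CXCL11, which did not pass (limma).

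The 10 neighbours of CXCL14 differed by -0.15 to 0.25, and none passed (limma, adjusted p = 0.0905 to 0.828). The measured gene just before ACKR3 was DRC11, a gene for a subunit of the ciliary dynein regulatory complex, which averaged 7.89 in S22A-progerin and 8.58 in wt-progerin (difference -0.69, SE 0.074, adjusted p = 7.56e-04, limma). HJURP, the chaperone that loads centromeric histone, stands 5 genes before ACKR3 and differed by -0.44 (adjusted p = 0.00225, limma), while COPS8 on the other side differed by -0.05 (adjusted p = 0.479, limma). Near CCL20 the lower genes were IRS1 (-0.66), an insulin receptor substrate, and MFF (-0.29), a mitochondrial fission factor (limma, adjusted p = 7.08e-04 and 0.0053). Near CCL2 they were TMEM98 (-0.46) and MYO1D (-0.35), an unconventional myosin (limma, adjusted p = 0.00551 and 0.010). These genes were named for their position.

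**Figure D4:**
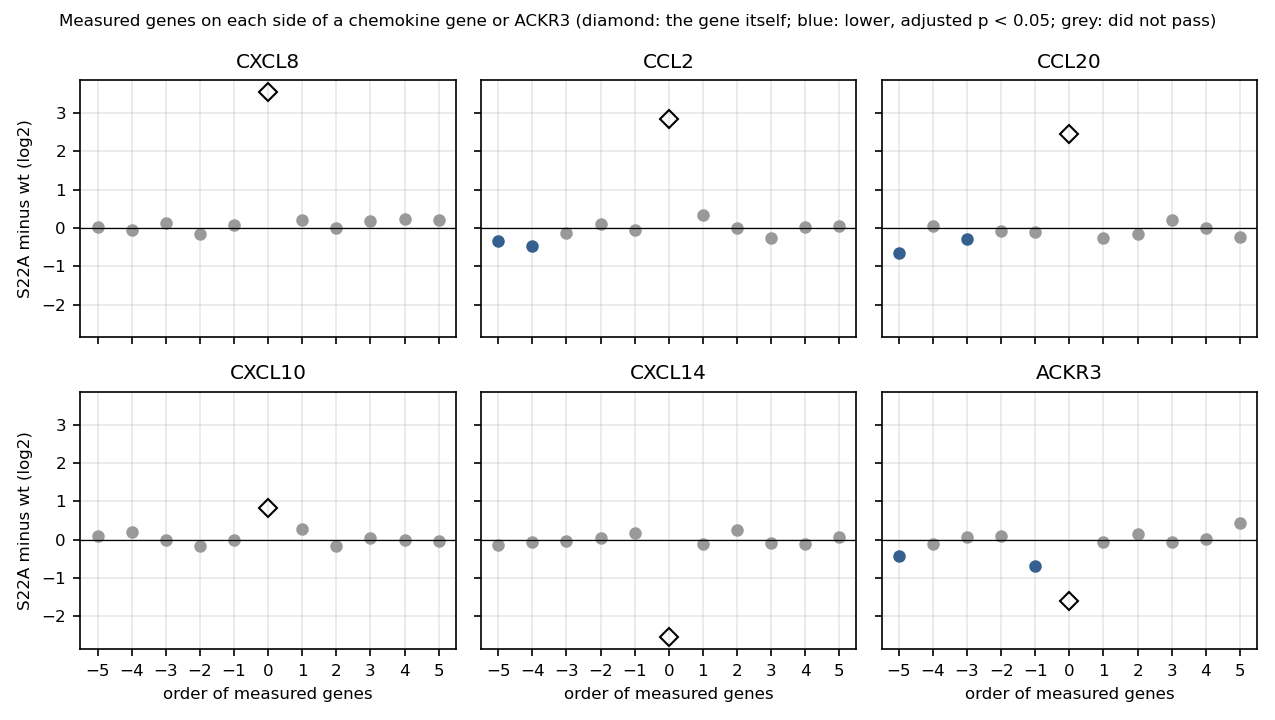
Differences of the 5 nearest measured genes on each side of the 6 genes, in RefSeq order, S22A-progerin minus wt-progerin in log2. Diamonds are the 6 genes themselves. The neighbours lie between -0.69 and 0.45 in every panel.

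Genes for transcription factors of chemokine promoters were often higher. Of 32 listed regulators 20 were measured, and 8 were higher and 2 lower (limma), against 10.8% and 14.6% over all genes, with a median of 0.18 against -0.004. The list was drawn up with earlier results of these data known. Of the NF-kB subunits, RELB read 8.33, 8.24 and 8.34 in S22A-progerin, against 7.65, 7.62 and 7.56 in wt-progerin, with no overlap (difference 0.69, SE 0.056, adjusted p = 2.27e-04, limma). NFKB2 (0.53, adjusted p = 0.00178), NFKB1 (0.48, adjusted p = 0.00111) and REL (0.39, adjusted p = 0.00764) were higher as well (limma). RELA, a main activating subunit, read 10.26, 10.18 and 10.29 in S22A-progerin, against 10.13, 10.15 and 10.11 in wt-progerin, and did not pass (difference 0.11, SE 0.054, adjusted p = 0.175, limma). CHUK, an IkB kinase gene, differed by 0.01 (adjusted p = 0.978, limma). The inhibitor genes NFKBIA and TNFAIP3 were not analysed here.

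AP-1 genes moved to both sides. FOSL1 read 9.98, 9.99 and 9.95 in S22A-progerin, against 8.95, 9.04 and 8.97 in wt-progerin, 1.99-fold higher (difference 0.99, SE 0.052, adjusted p = 4.63e-05, limma). JUNB (0.71, adjusted p = 7.23e-04) and ATF3 (0.70, adjusted p = 0.00217) were higher, and FOSL2 (-0.42, adjusted p = 0.00388) was lower (limma). The calls of FOSB (0.26, adjusted p = 0.0312), which was higher, and JUND (-0.25, adjusted p = 0.0311), which was lower, did not hold in all fits, and both were named for that (limma). FOSB did not pass with any 1 array other than S22A-progerin replicate 3 left out, nor with its probe sets averaged (adjusted p = 0.103). JUND did not pass without replicate 1 or 2 of either group, which left 1 lower regulator. JUN (-0.15, adjusted p = 0.15) and STAT3 (0.16, adjusted p = 0.0557) did not pass (limma). The interferon regulatory factor genes on the list did not pass either. They were IRF1 (0.23, adjusted p = 0.0722), IRF3 (0.0032, adjusted p = 0.983), IRF5 (0.04, adjusted p = 0.695) and IRF7 (0.03, adjusted p = 0.852, limma). BCL3 (0.19, adjusted p = 0.0734) and FOS (0.16, adjusted p = 0.0758) had no call (limma). These genes were named after their values were seen.

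A further list was named for AU-rich mRNAs, a class that includes the CXCL8 transcript. Of its 13 genes 7 were measured, with 2 higher and 4 lower (limma), against 10.8% and 14.6% over all genes. Their median was -0.17 against -0.004. The list is wider than its name, since it also holds factors of inflammatory mRNAs in general and of p38 kinase signalling. The 2 higher genes, ZC3H12A and DUSP1, are of this wider kind. For short, the listed genes are called AU-rich factors below. ZC3H12A, the ribonuclease Regnase-1 that degrades inflammatory mRNAs, read 9.27, 9.25 and 9.54 in S22A-progerin, against 7.92, 8.11 and 8.25 in wt-progerin. It was 2.40-fold higher with no overlap (difference 1.26, SE 0.11, adjusted p = 3.35e-04, limma). TIA1, which silences the translation of such mRNAs, was lower (-0.61, SE 0.064, adjusted p = 6.59e-04), as were N4BP1 (-0.36, adjusted p = 0.00762), which restrains cytokine production, and TIAL1 (-0.30, adjusted p = 0.0152), a relative of TIA1 (limma). DUSP1, a phosphatase that switches off the p38 kinase, differed by 0.23 (adjusted p = 0.0355), and KHSRP, a decay-promoting RNA-binding protein, by -0.17 (adjusted p = 0.0440, limma). KHSRP did not pass with any 1 array left out, DUSP1 with any 1 other than S22A-progerin replicate 3, and TIAL1 without wt-progerin replicate 1, which left 1 higher and as few as 2 lower. MAPKAPK2 (-0.05) did not pass, and ZFP36, the gene for the decay factor tristetraprolin, was not analysed here.

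Genes whose products cut, modify or display chemokines split evenly, with 7 of 21 measured genes higher and 7 lower out of 24 listed (limma), against 10.8% and 14.6% over all genes, and a median of 0.0053 against -0.004. DPP4, a surface peptidase that trims the ends of CXCL10 and CXCL12, read 8.002, 7.95 and 7.82 in S22A-progerin, against 7.25, 7.31 and 7.27 in wt-progerin, 1.57-fold higher with no overlap (difference 0.65, SE 0.063, adjusted p = 4.77e-04, limma). The collagenase MMP1 (2.003, adjusted p = 3.86e-06), the macrophage elastase MMP12 (0.89, adjusted p = 3.98e-04) and the cathepsin gene CTSB (0.47, adjusted p = 7.91e-04) were higher (limma). MMP8 was higher too (1.02, adjusted p = 0.00448), and the collagenase MMP13 was lower (-0.57, adjusted p = 0.00117, limma). Of the heparan sulfate genes, on whose chains chemokines are held at the cell surface, EXT1, a chain polymerase, was higher (0.49, adjusted p = 0.00118, limma). NDST1, an early sulfating enzyme, was lower (-0.57, adjusted p = 0.00103, limma), as was HS6ST1 (-0.36, adjusted p = 0.00239, limma). The core protein genes of the syndecans went both ways. SDC2 (-1.71, adjusted p = 6.76e-06) and SDC3 (-0.41, adjusted p = 0.00491) were lower and SDC4 (0.38, adjusted p = 0.00369) was higher, while SDC1 (0.16, adjusted p = 0.0594) passed only with some settings, such as without S22A-progerin replicate 3 (limma). TPST1 and TPST2, which sulfate tyrosines at the start of chemokine receptors, were both among the lower genes (-0.23, adjusted p = 0.0291, and -0.42, adjusted p = 0.0072, limma). MMP8, HS6ST1, SDC1, SDC3, SDC4, TPST1 and TPST2 were named after their values were seen. TPST1 did not pass without any 1 wt-progerin array or without S22A-progerin replicate 2 or 3. The sheddases ADAM10 (0.0053) and ADAM17 (0.09), which release CX3CL1 and CXCL16 from the membrane, did not pass, nor did EXT2 (0.0032) and GPC1 (-0.12).

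**Figure D5:**
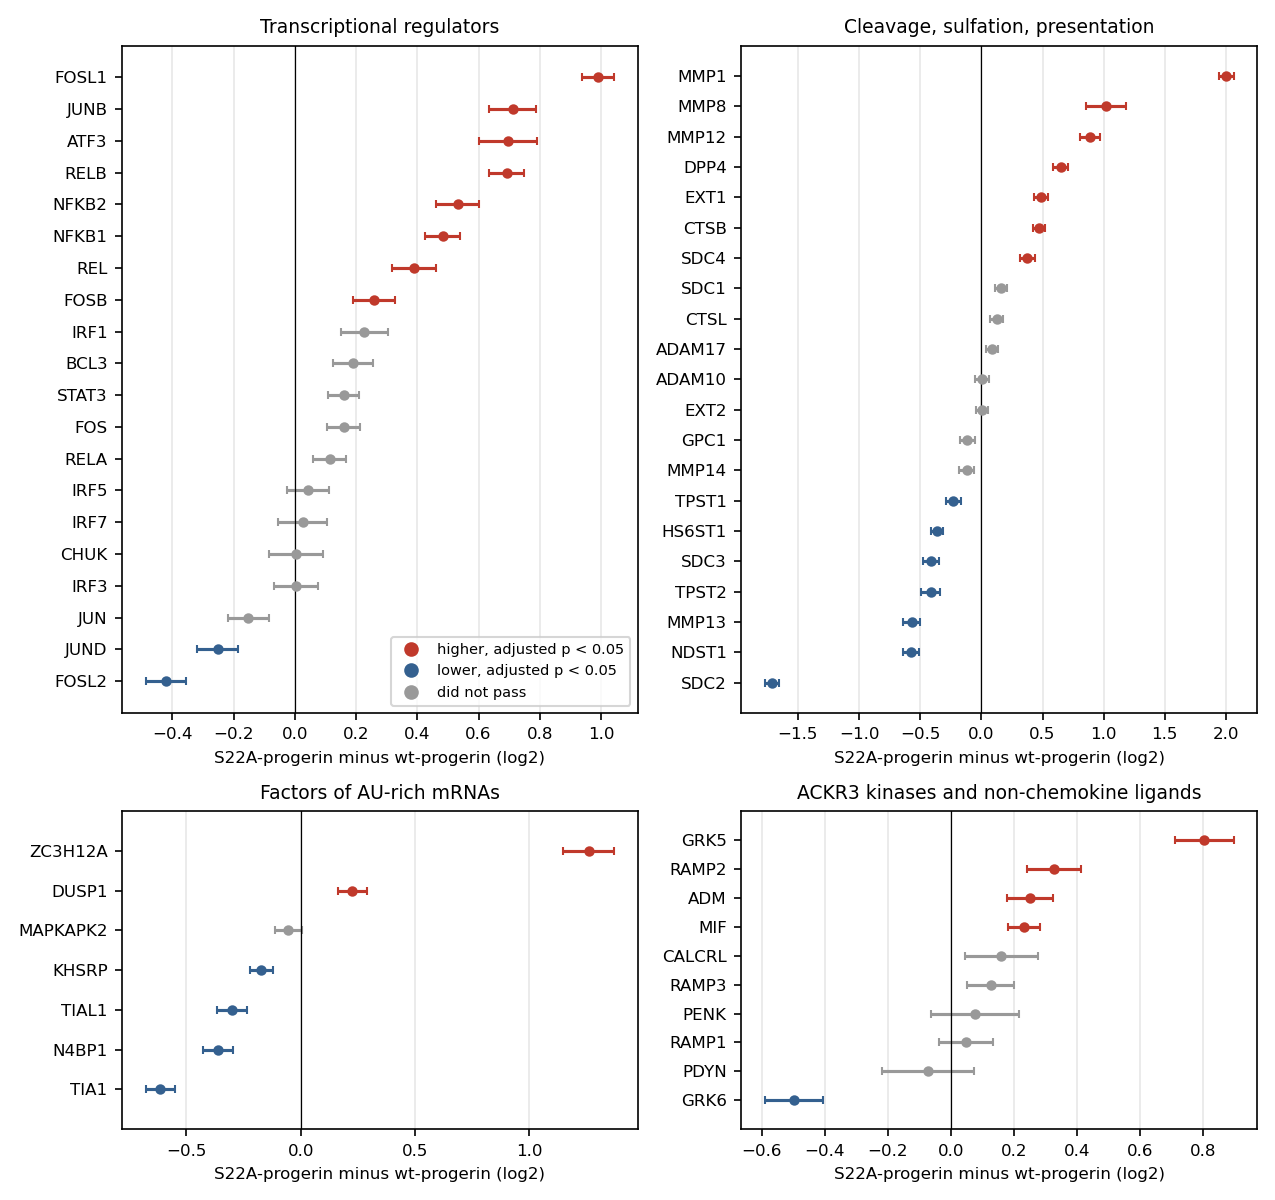
Differences of genes for transcriptional regulators, for cleavage, sulfation and presentation of chemokines, for factors of AU-rich mRNAs and for ACKR3 kinases and non-chemokine ligands, S22A-progerin minus wt-progerin in log2, with limma's SE as bars; the x axes differ between panels. FOSL1 (0.99), MMP1 (2.003), ZC3H12A (1.26) and GRK5 (0.80) are the highest of their panels, and FOSL2 (-0.42), SDC2 (-1.71), TIA1 (-0.61) and GRK6 (-0.50) the lowest.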

How the data were processed

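The authors deposited log2 values computed by RMA (background correction, quantile normalization and probe set summary); RMA and Affymetrix Expression Console are the tools in the submitters' processing notes. Versions, settings and build: not given in the sources used here. Per the labels' protocols, total RNA from Trizol extracts was labelled for Affymetrix whole-transcript arrays. Groups came from the labels, with 3 arrays each, a number that limits the precision.

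Of 53617 probe sets 16098 had 1 gene symbol in the platform annotation, 0 had several and 37519 were not named here. For the 779 of 14884 genes with several probe sets the brightest was used. Genes were tested with limma 3.58.1 in R 4.3.3 (lmFit, eBayes, no covariate, two-sided). Benjamini-Hochberg adjustment ran over all genes, with calls at 0.05. The code was tested on simulated data. The spread behind each p is that between replicate arrays, drawn by eBayes towards a spread estimated over all genes. The members and lists were chosen with earlier results of these data known. Named were the members and the 2 genes nearest in profile to each. Of each list up to 8 called genes and up to 4 uncalled genes of highest mean were named, with exceptions stated. Motifs were searched in RefSeq windows of 250 bases (GRCh38.p14), and neighbours came from RefSeq order. Alternatives covered normalization, centring, dim genes, probe sets, variance prior, array weights, replicate block, left-out arrays and a threshold of 0.01.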

Additional observations from a re-analysis of the deposited data

How the results depend on the processing

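The differences of the 6 chosen genes kept their sign in all 66 refits, and 1 moved by more than the spread within groups, that of ACKR3, which was -1.64 with median centring. No called gene of a list changed sign, and 29 of 42 kept the call in all alternatives that tested them. At a threshold of 0.01, 852 genes were higher and 1226 lower over all genes, with 0 lower ligands, 1 higher receptor, 1 higher ACKR3 partner, 1 lower transcriptional regulator, and 1 higher and 2 lower factors of AU-rich mRNAs. Repeated quantile normalization left 1 lower ligand. Median centring left 1 higher receptor, 2 higher ACKR3 partners and 1 higher AU-rich factor. Without the dimmer 50% of genes, 1 higher ligand and 0 higher receptors were left, since CXCL3, CCR4 and ACKR2 were themselves among the genes left out. The trend and robust prior left 1 higher receptor. For the other changes the cause was not tested. With the replicate number as a block, 1285 genes were higher and 1705 lower, with 0 lower ligands, 1 higher ACKR3 partner, 1 lower regulator and 1 higher AU-rich factor, and the higher receptors were 2. Same-numbered arrays did not deviate together (correlations of -0.019, -0.055 and -0.0056 for replicates 1, 2 and 3). These values cannot exclude that same-numbered samples were handled together. With 1 array left out, counts ranged over 1126 to 1553 higher and 1514 to 2048 lower over all genes, 0 to 3 lower ligands, 1 to 3 higher receptors, 1 to 4 higher ACKR3 partners, 1 to 2 lower regulators, and 1 to 2 higher and 2 to 3 lower AU-rich factors. No background signal was used, so the precision of dim probe sets such as CXCL10 is limited.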
